A study of Mus musculus with 2 samples.

Results

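The transcripts described here lie at genes that dividing cells use: Myc with its neighbour Pvt1, Mki67, Plk1 and E2f1. They were chosen by name and place from tables of long non-coding RNA (lncRNA), and comprised the annotated transcripts of Gm45240 inside Mki67, Gm44985 inside Plk1 and Pvt1 downstream of Myc, and the transcripts assembled from the reads that carried the gene name Pvt1, Myc or E2f1. This gave 31 of 32012 transcripts, of which 12 were annotated and 19 assembled. A total of 24 of them reached 0.5 FPKM (fragments per kilobase of transcript, scaled to 1000000 fragments) in at least 1 library. The levels are those of transcripts listed as lncRNA at these genes, and reads of the host genes' own RNA could be counted among them. The mRNA of Myc, Mki67, Plk1 and E2f1 was not analysed here.

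Spleen cell RNA from collagen-induced arthritis (CIA), a model of joint inflammation raised by immunization against type II collagen, was compared with that of healthy, untreated mice. Each group had 1 library, so differences are between 2 libraries, not between the conditions, and have no replicate check. Titles give day 40 for both groups, while the treatment label of the CIA mice places sacrifice 42 days after the first immunization. Strain, age, sex and the number of mice behind each library are not stated in the labels. The RNA was total RNA depleted of ribosomal RNA.

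Myc is a transcription factor that drives cell growth and entry into the cell cycle, and E2f1 is a transcription factor that switches on genes of DNA replication. Plk1 is a kinase of mitosis, and Mki67 encodes Ki-67, a protein of dividing cells that coats mitotic chromosomes and is widely used as a proliferation marker. Pvt1 is an lncRNA gene beside Myc, often amplified together with it in tumours and known as a site of chromosome breaks in mouse plasma cell tumours. In the spleen, dividing cells include activated lymphocytes and, in mice, red blood cell precursors of the red pulp.

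Gm45240 and Gm44985 differ in how far they can be told from their host genes, and their sequences show where. Both come from the GENCODE M21 transcripts, on GRCm38, and are written 5′ to 3′ on the strand of the lncRNA. Gm45240 (ENSMUST00000211437) has 1 exon of 674 bases at chr7:135709194-135709867 on the plus strand. It lies inside intron 4 of Mki67, which runs the opposite way at chr7:135689784-135716361, and 382 bases from the nearest Mki67 exon. GENCODE types it, like Gm44985, as a single-exon locus that still awaits experimental evidence. Its first 300 bases (chr7:135709194-135709493) are shown with bases 1 to 83 in capitals, the stretch that aligned to transcripts of 1023 other genes, with at most 92.7% identity. Gm44985 (ENSMUST00000206202) has 1 exon of 1016 bases at chr7:122167029-122168044 on the minus strand, inside Plk1 (chr7:122159439-122169873, plus strand). Its bases 221 to 520 (chr7:122167525-122167824) are shown with the whole of Plk1 exon 6, read on the opposite strand, in capitals.
Gm45240: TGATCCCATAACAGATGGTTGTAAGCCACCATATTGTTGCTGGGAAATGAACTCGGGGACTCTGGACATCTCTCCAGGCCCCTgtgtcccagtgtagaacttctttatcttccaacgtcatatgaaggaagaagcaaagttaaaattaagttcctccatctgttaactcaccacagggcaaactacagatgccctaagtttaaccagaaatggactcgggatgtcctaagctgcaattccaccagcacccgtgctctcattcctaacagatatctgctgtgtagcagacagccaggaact
Gm44985: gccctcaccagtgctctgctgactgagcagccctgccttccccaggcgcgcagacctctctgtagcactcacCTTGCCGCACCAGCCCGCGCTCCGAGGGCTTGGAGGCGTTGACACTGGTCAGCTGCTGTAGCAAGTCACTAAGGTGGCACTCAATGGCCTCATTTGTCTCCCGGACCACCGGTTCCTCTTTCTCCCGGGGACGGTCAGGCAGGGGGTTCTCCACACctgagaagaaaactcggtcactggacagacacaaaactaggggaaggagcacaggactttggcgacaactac
The capitals of Gm45240 cover 12.3% of its length, and the other bases matched no transcript of another gene. The capitals of Gm44985 are 156 coding bases of Plk1 and 15.4% of its length. The same stretch matched Plk-ps1, a Plk1 pseudogene, at 96.8% identity over 154 bases. The strand setting of the counting is not given in the sources used here, so reads of Plk1 exon 6 and of Gm44985 cannot be told apart there. Outside the capitals, reads of unspliced Plk1 RNA could also be counted for Gm44985. Gm45240 overlaps no Mki67 exon, but reads of unspliced Mki67 RNA could be counted for it.

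Pvt1 (chr15:62037986-62378096, plus strand) spans 340.1 kb and starts 47.6 kb after the end of Myc. Its 10 GENCODE isoforms split by first exon. Pvt1-201, Pvt1-202, Pvt1-203, Pvt1-204 and Pvt1-208 share a first exon that ends at the same base, 62038201. The most abundant isoform of the CIA library, Pvt1-210, starts 1271 bases after the first base of the gene, from an exon of 191 bases that no other isoform holds. Pvt1-201 and Pvt1-210 are shown from their first base, with their first exons in lower case. Capitals mark the first 20 bases of the exon both splice to (chr15:62107148-62107167).
Pvt1-201: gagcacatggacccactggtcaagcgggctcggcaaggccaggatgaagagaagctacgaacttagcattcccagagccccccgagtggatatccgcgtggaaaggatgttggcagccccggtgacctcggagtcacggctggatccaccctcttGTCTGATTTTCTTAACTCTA
Pvt1-210: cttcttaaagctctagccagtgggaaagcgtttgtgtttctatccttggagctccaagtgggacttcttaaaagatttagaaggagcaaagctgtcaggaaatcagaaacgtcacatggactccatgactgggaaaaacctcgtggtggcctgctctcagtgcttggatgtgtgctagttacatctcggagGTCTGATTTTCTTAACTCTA
The lower-case stretches are chr15:62038047-62038201 for Pvt1-201 and chr15:62039257-62039447 for Pvt1-210. Of the 1563 bases of Pvt1-201, 861 (55.1%) also belong to Pvt1-210, where they make up 81.8%. Reads there can be given to either isoform, and 132 bases of Pvt1-201 lie in no other isoform. Bases 1 to 155 of Pvt1-201, its first exon, also matched the annotated Gm27913 at 100% identity on the same strand. Bases 231 to 316 of Pvt1-210 matched Gm27718 in the same way. Reads of these stretches could be counted for those entries as well.

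The files hold FPKM and no counts, but the low values allow an estimate of depth. FPKM multiplied by length piled up at 50.2 in the CIA library and 46.3 in the healthy library, at 45 of 162 and 45 of 155 low single-exon annotated transcripts. Taken as the worth of 1 fragment, these values correspond to 19.9 and 21.6 times 1000000 fragments. Fragment numbers below are FPKM multiplied by length and divided by that worth, rounded, and the 95% exact intervals made from them cover counting error only. Among the 34 cell type markers looked up by gene name, 12 had a transcript in these tables. Those of T cells (3 of 8) summed to 105.5 FPKM in the CIA library and 40.2 in the healthy one, of B cells (3 of 6) to 251.2 and 162.2, and of erythroid cells (3 of 5) to 76.7 and 99.2. The leukocyte marker Mir142hg (1 of 2) summed to 42.1 and 46.9 FPKM. The 1 stromal and endothelial marker of 4 with a transcript, Pecam1, summed to 64.3 and 32.8 FPKM, and the 1 myeloid marker of 5, Lyz2, was listed at 0 in the CIA library and at 5.04 in the healthy one. Cd3e, Cd4, Cd8a, Cd79a and Ptprc had no transcript in these lncRNA tables, nor had the 4 markers of other tissues (Acan, Alb, Col2a1, Myh6). The part of these cell type differences in the values below was not tested, and in bulk RNA fewer cells of a type and less RNA per cell cannot be told apart.

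Log2 ratios below are log2((CIA FPKM + 0.1)/(healthy FPKM + 0.1)), which understate the change of low transcripts, and at least 2-fold is the size rule that stands in for a test. The median log2 ratio was 0.30 over the 3068 annotated transcripts that passed 0.5 FPKM and 0.25 over the 12558 assembled ones inside introns, so a member with a ratio near 0 lay below most transcripts of these tables. Most of the 24 members past 0.5 FPKM lay at a single gene, Pvt1, among them its 17 assembled transcripts. Each other locus gave 1 member. The members' counts, shares and median thus describe mainly Pvt1, whose transcripts are pieces of the same locus. Of the 24 members past 0.5 FPKM, 0 were higher by 2-fold or more in CIA spleen and 1, Pvt1-201, was lower by that much. Among all annotated transcripts past the filter 15.7% were that much higher and 6.13% that much lower, and among all assembled ones 17.2% and 11.1%. With ratios centred on the annotated median this split turned from 481 higher and 188 lower annotated transcripts to 292 and 274, and from 2887 and 1863 assembled ones to 1927 and 2576. The members' log2 ratios ran from -1.88 to 0.84 with a median of 0.16. A total of 17 were above 0 and 7 below, but against the annotated median 8 were above and 16 below. The smallest p of any of the 24 in the authors' deposited table was 0.116, with a q of 0.786. Of the 24, 0 had a p below 0.05 in the authors' deposited table. Without the filter, 0.389% of all 15172 annotated and 1.85% of all 16840 assembled transcripts had one. These shares are thus over a wider set than the 24, which passed 0.5 FPKM.

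**Figure D1:**
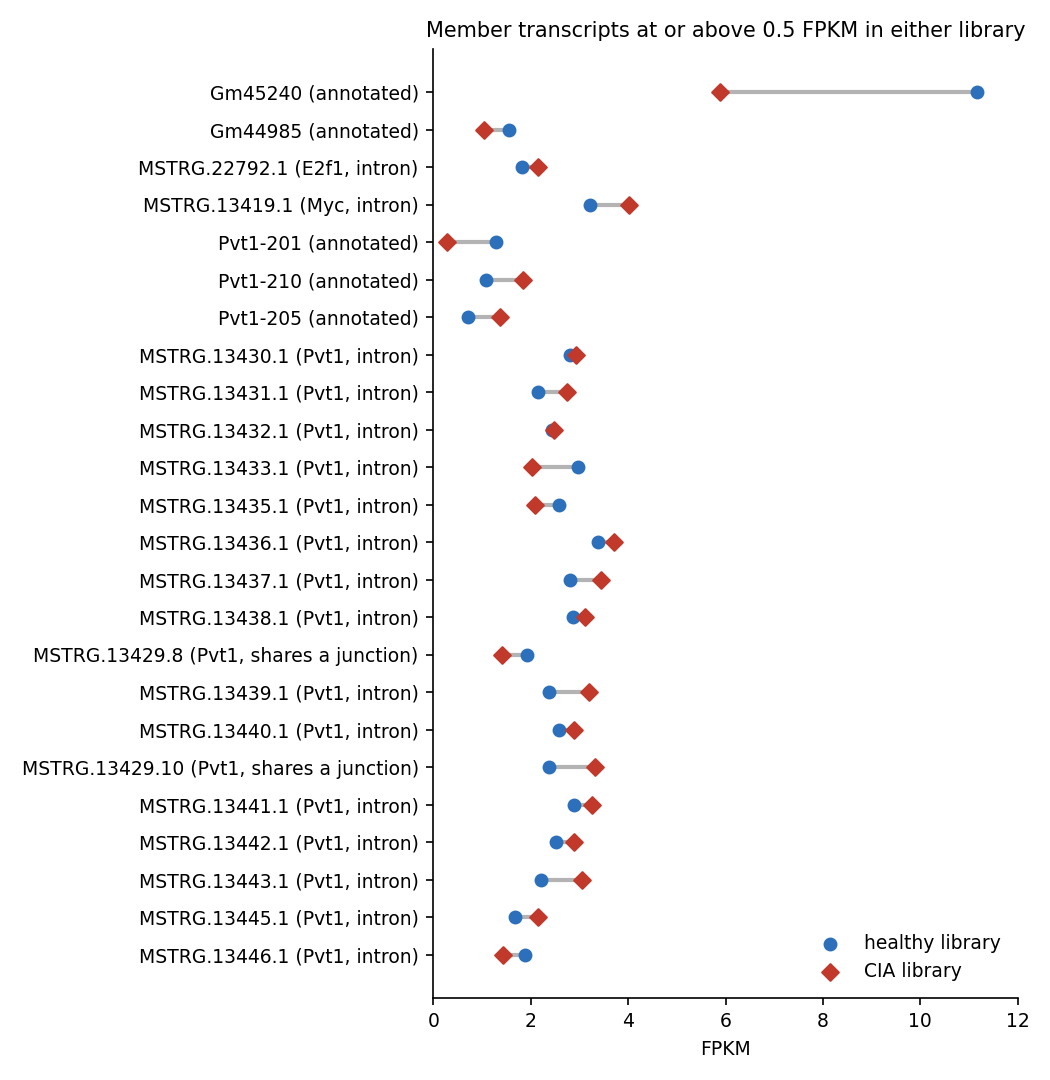
FPKM of the 24 member transcripts at or above 0.5 FPKM in either library, with a blue circle for the healthy and a red diamond for the CIA library, 1 library per group and no error bars. Gm45240 stands apart on the healthy side at 11.2 FPKM, while the assembled transcripts of Pvt1, Myc and E2f1 lie between 1.41 and 4.01 FPKM in both libraries.

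At Mki67, Gm45240 stood at 5.89 FPKM in CIA spleen and 11.2 FPKM in healthy spleen. The healthy library was the higher one, and Gm45240 was the most abundant member in both. The CIA level was 0.528 of the healthy level, a log2 ratio of -0.91, which falls short of the 2-fold rule. Against the annotated median its log2 ratio was -1.21. About 79 fragments in the CIA library (95% exact Poisson interval 62.5 to 98.5) and 162 in the healthy library (138.0 to 189.0) lay behind these values. Without the pseudocount the log2 ratio was -0.92, with a counting interval of -1.33 to -0.52 that does not reach 0. The authors' deposited table gives Gm45240 a p of 0.116 and a q of 0.786.

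The level of Gm45240 was high for a transcript of its kind. Of 140 annotated single-exon transcripts that lie antisense within a coding gene without touching its exons, 2, itself included, had a healthy FPKM as high or higher, and the median of the 140 was 1.47 FPKM in the healthy and 1.82 FPKM in the CIA library. Their median log2 ratio was 0.29, and 6 of them (4.29%) had a ratio as low as that of Gm45240 or lower. Over all 3068 annotated transcripts past the filter that share was 6.78%. By distance in the log2 levels over the 2 libraries, the genes nearest to Gm45240 among 2765 annotated genes were Gm12064 (4.98 FPKM in the CIA and 10.1 in the healthy library), the snoRNA host Snhg8 (6.99 and 9.66 FPKM) and Gm16094 (6.05 and 8.38 FPKM). Their distances were 0.279, 0.319 and 0.411, and with 1 library per group such a likeness rests on a single pair of values.

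One assembled transcript carried the name Mki67 itself, and none lay inside its introns. MSTRG.35257.1 has 2 exons and 244 bases, runs on the plus strand at chr7:135696347-135699794 and overlaps an Mki67 exon in the antisense direction. It stood at 1.75 FPKM in CIA spleen and 4.29 FPKM in healthy spleen, from 8.51 and 22.6 estimated fragments. The healthy value was again the higher, with a log2 ratio of -1.25. As the strand setting is not given, reads of that Mki67 exon could also be counted for MSTRG.35257.1. Downstream of Mki67, the 3 isoforms of the lncRNA gene 5830432E09Rik stood at 1.14, 1.81 and 1.05 FPKM in the CIA and 1.50, 1.24 and 1.03 FPKM in the healthy library. They had log2 ratios of -0.37, 0.51 and 0.019, so the direction at Gm45240 did not extend to each of them. 5830432E09Rik and the neighbours named at Plk1 and Myc were chosen after their values were seen.

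At Plk1, Gm44985 stood at 1.04 FPKM in CIA spleen and 1.56 FPKM in healthy spleen. Its log2 ratio was -0.54, in the same direction as that of Gm45240, and -0.83 against the annotated median. About 21 fragments in the CIA library (interval 13.0 to 32.1) and 34 in the healthy one (23.5 to 47.5) lay behind it. The counting interval of the log2 ratio without the pseudocount, -1.44 to 0.25, includes 0, so a difference was not detectable at this depth. The authors' deposited table gives Gm44985 a p of 0.319. Of 97 annotated single-exon transcripts antisense to a coding gene's exon, 13 (13.4%) had a ratio as low or lower, and their median was 0.27. Of all 3068 annotated transcripts past the filter, 11.4% had a ratio that low. Gm15489, an annotated lncRNA that starts just upstream of Plk1 and runs the opposite way, stood at 0.376 FPKM in the CIA and 0.799 in the healthy library. Its 2 assembled intronic transcripts stood at 2.43 against 1.95 FPKM and 1.80 against 1.88 FPKM. No assembled transcript in these tables carried the name Plk1.

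At Myc, the 1 assembled transcript that carried its name, MSTRG.13419.1, has a single exon of 371 bases at chr15:61988524-61988894 on the plus strand. It lies in intron 2 of Myc, 245 bases from the nearest Myc exon and on the same strand. Its level was 4.01 FPKM in CIA spleen and 3.22 FPKM in healthy spleen. The CIA value was the higher by a log2 ratio of 0.31, or 0.013 against the annotated median, from about 30 and 26 fragments. The counting interval of -0.48 to 1.14 includes 0. Upstream of Myc, the annotated Gm37947 was listed at 0 in both libraries.

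At E2f1, MSTRG.22792.1 has a single exon of 895 bases at chr2:154567804-154568698, with no strand assigned. It lies in intron 1 of E2f1 (chr2:154559407-154569892, minus strand), 368 bases from the nearest exon. Its level was 2.16 FPKM in CIA spleen and 1.82 FPKM in healthy spleen. The log2 ratio of 0.23 turned to -0.064 against the annotated median, and the counting interval, -0.47 to 0.94, includes 0. About 38 and 35 fragments lay behind it. The authors' deposited table gives p values of 0.808 for MSTRG.13419.1 at Myc and 0.890 for MSTRG.22792.1 at E2f1. As the reads of an unspliced host RNA and of a separate intronic RNA cannot be told apart, these are levels of the intron and not of a separate gene.

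Of the 10 annotated Pvt1 isoforms, 3 reached 0.5 FPKM in either library. Pvt1-210 stood at 1.83 FPKM in CIA spleen and 1.08 FPKM in healthy spleen, and Pvt1-205 at 1.36 and 0.716 FPKM. Pvt1-201 stood at 0.278 FPKM in CIA spleen and 1.29 FPKM in healthy spleen. The order of the isoforms thus differed: Pvt1-201 was the most abundant in the healthy library, and Pvt1-210 in the CIA library. Pvt1-208 (0.351 and 0.282 FPKM) and Pvt1-204 (0.406 and 0.146 FPKM) stayed under 0.5 FPKM, though above Pvt1-201 in CIA spleen, Pvt1-203 was at 0.00274 and 0.0445 FPKM, Pvt1-209 was under 0.001 FPKM in both libraries, and Pvt1-202, Pvt1-206 and Pvt1-207 were listed at 0 in both.

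**Figure D2:**
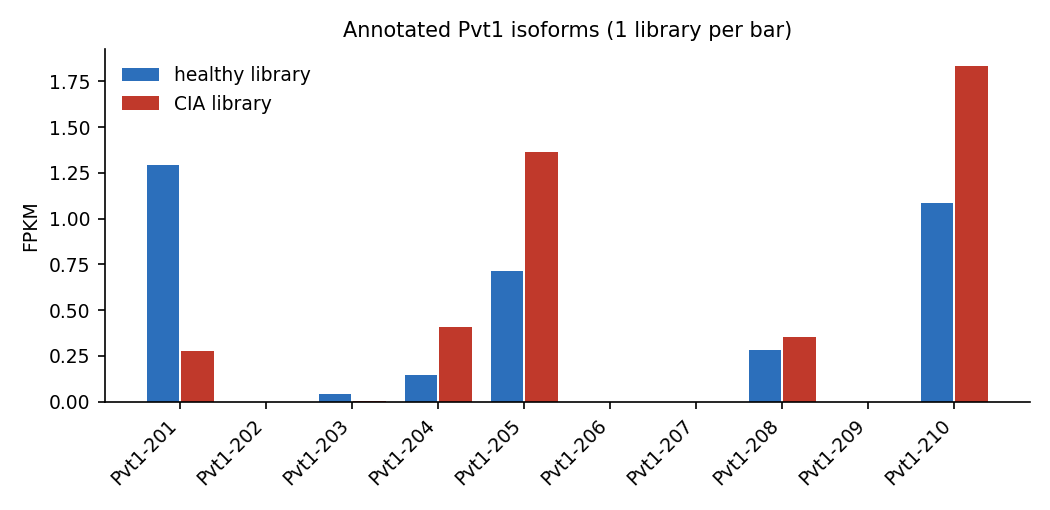
FPKM of the 10 annotated Pvt1 isoforms in the healthy library (blue bars) and the CIA library (red bars), 1 library per bar and no error bars. Pvt1-201 is the highest isoform in the healthy library at 1.29 FPKM and Pvt1-210 in the CIA library at 1.83 FPKM.

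Pvt1-201 had a log2 ratio of -1.88, the lowest of the 24 members past the filter. Its estimated fragments numbered 9 in the CIA library and 44 in the healthy library, and the counting interval of the log2 ratio without the pseudocount was -3.39 to -1.12. With a pseudocount of 1 FPKM the log2 ratio was -0.84, which no longer passes the 2-fold rule. In the authors' deposited table its p is 1. Pvt1-210 had a log2 ratio of 0.71 and Pvt1-205 of 0.84, with counting intervals of -0.045 to 1.51 and -0.43 to 2.38 that include 0. The counting intervals leave out the error of dividing shared reads between isoforms, which these files do not give.

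The other 4 isoforms that share the first exon of Pvt1-201 did not all share its direction. Of them, 2 had a log2 ratio above 0 and 1 below, and the remaining one was listed at 0 in both libraries. The 1 below was Pvt1-203, at 0.00274 FPKM in CIA spleen and 0.0445 FPKM in healthy spleen. The 5 isoforms from the first exon of Pvt1-201 summed to 1.04 FPKM in CIA spleen and 1.76 FPKM in healthy spleen, 24.5% and 49.5% of all annotated Pvt1 FPKM, from 24 and 57 fragments. Without Pvt1-201 the other 4 summed to 0.759 and 0.472 FPKM, the opposite direction, from 15 and 13 fragments, and their length-weighted log2 ratio of 0.34 had a counting interval of -0.85 to 1.51 that includes 0. The 5 isoforms with other first exons summed to 3.20 FPKM in CIA and 1.80 in healthy spleen, a length-weighted log2 ratio of 0.80 (0.15 to 1.50, 52 against 32 fragments) whose interval includes the annotated median of 0.30. Within the sum, Pvt1-201 held 6.56% in the CIA and 36.2% in the healthy library, Pvt1-210 43.3% and 30.4%, and Pvt1-205 32.2% and 20.1%.

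For the annotated Pvt1 isoforms together, no direction held. Their FPKM summed to 4.23 in the CIA library and 3.56 in the healthy one, with a log2 ratio of 0.24 that was -0.054 against the annotated median. Weighted by length it was -0.11, with a counting interval of -0.57 to 0.35, from 76 and 89 fragments. Adding the 2 assembled transcripts that share a splice junction with Pvt1 changed this. MSTRG.13429.10, with 7 exons and 5058 bases, stood at 3.32 FPKM in CIA spleen and 2.38 FPKM in healthy spleen, and MSTRG.13429.8, with 3 exons and 1803 bases, at 1.41 and 1.92 FPKM. They went in opposite directions, with log2 ratios of 0.46 and -0.42. With them, the exonic Pvt1 transcripts gave 461 fragments in the CIA and 424 in the healthy library and a length-weighted log2 ratio of 0.24 (0.044 to 0.43), an interval that includes the annotated median of 0.30.

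Most estimated Pvt1 fragments in these tables lay inside its introns. The 15 assembled intronic transcripts covered 61.4 kb, between 251 and 16285 bases each, and 11 of them had no strand, while 2 were on the plus and 2 on the minus strand, opposite to Pvt1. They held about 3590 fragments in the CIA library and 3375 in the healthy library, more than any other member locus. Their levels ran from 1.42 to 3.71 FPKM in the CIA library (median 2.90) and from 1.68 to 3.38 FPKM in the healthy library (median 2.58). For comparison, the medians over all 12558 intronic assembled transcripts past the filter were 2.30 FPKM in CIA spleen and 2.01 FPKM in healthy spleen.

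The length-weighted level of the Pvt1 introns was 2.94 FPKM in CIA spleen and 2.54 FPKM in healthy spleen, a log2 ratio of 0.21 with a counting interval of 0.14 to 0.27. This was above 0 beyond counting error. Its interval includes the intronic median of 0.25 but lies below the annotated median of 0.30. The 2 medians are of single transcripts with the pseudocount, while the length-weighted ratio has none, so they are not strictly alike. Of the 15 transcripts, 12 had a log2 ratio above 0 and 3 below, 5 lay above and 10 below the intronic median, and 0 reached 2-fold in either direction, against 25.9% of all intronic assembled transcripts. Against the annotated median, 4 of the 15 were above and 11 below. The median of the 15 was 0.16, with a range of -0.53 to 0.45.

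**Figure D3:**
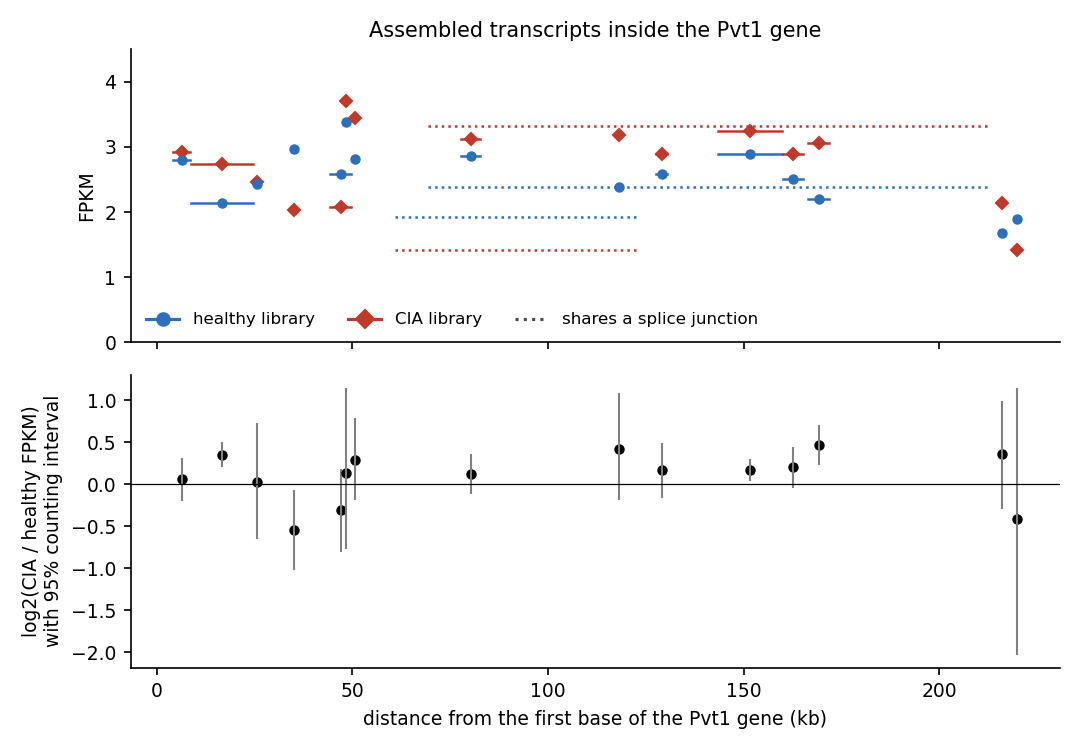
The 17 assembled Pvt1 transcripts by distance from the first base of the gene in kb: FPKM in the healthy (blue) and CIA (red) library above, with line length showing the span and dotted lines the 2 transcripts that share a splice junction, and the log2 ratio without pseudocount of the 15 intronic ones below, with 95% counting intervals. The levels lie between 1.41 and 3.71 FPKM along the gene, and the interval of MSTRG.13433.1, in the first intron, is the 1 of 15 that lies wholly below 0.

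Along the gene, the longest intronic transcripts had the narrowest intervals. MSTRG.13441.1, of 16285 bases, stood at 3.25 FPKM in CIA spleen and 2.89 FPKM in healthy spleen, a log2 ratio of 0.16 from 1054 and 1016 fragments. MSTRG.13431.1, of 15783 bases and on the strand opposite to Pvt1, stood at 2.74 and 2.15 FPKM, a log2 ratio of 0.34 from 862 and 731 fragments. MSTRG.13443.1 had the highest log2 ratio of the 15, 0.45, at 3.06 FPKM in CIA spleen and 2.21 FPKM in healthy spleen. For these 3 the counting interval lay above 0, while against the annotated median MSTRG.13441.1 had a log2 ratio of -0.13.

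In the first intron of Pvt1, MSTRG.13433.1 went the other way, at 2.03 FPKM in CIA spleen and 2.97 FPKM in healthy spleen. Its log2 ratio was -0.53, with a counting interval of -1.03 to -0.070 from 62 and 98 fragments, and the authors' deposited table gives it a p of 0.315. The other 2 below 0 were MSTRG.13435.1 (2.08 and 2.58 FPKM, log2 ratio -0.29) and MSTRG.13446.1 (1.42 and 1.89 FPKM, log2 ratio -0.39), whose intervals include 0. The intervals of 11 of the 15 include 0. Of the others in the first intron, MSTRG.13430.1 stood at 2.93 FPKM in CIA and 2.81 in healthy spleen, MSTRG.13432.1 at 2.47 and 2.43, MSTRG.13436.1 at 3.71 and 3.38, and MSTRG.13437.1 at 3.44 and 2.81. Farther along the gene, MSTRG.13438.1 stood at 3.12 and 2.86 FPKM, MSTRG.13439.1 at 3.19 and 2.38, MSTRG.13440.1 at 2.90 and 2.58, MSTRG.13442.1 at 2.89 and 2.52, and MSTRG.13445.1 at 2.15 and 1.68. In each of these 9 the CIA value was the higher, with log2 ratios between 0.023 for MSTRG.13432.1 and 0.41 for MSTRG.13439.1, but against the annotated median MSTRG.13439.1 and MSTRG.13445.1 alone among them were above 0.

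**Figure D4:**
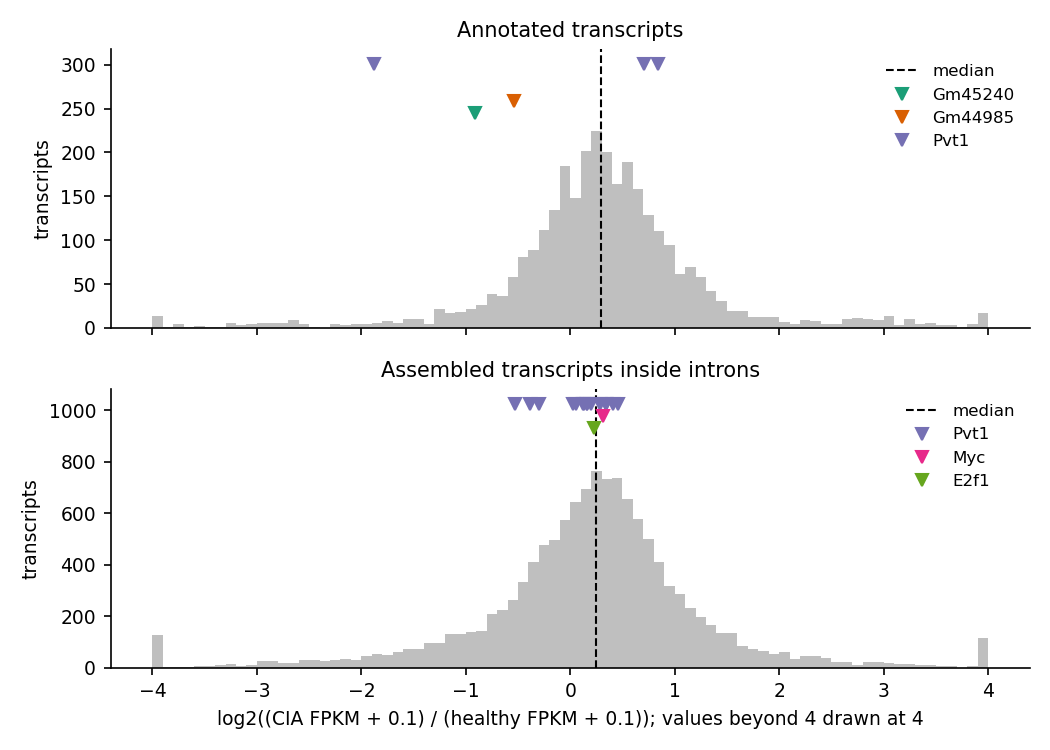
Histograms of the log2 ratio, CIA over healthy FPKM with 0.1 FPKM added to both, for the 3068 annotated (top) and 12558 intronic assembled (bottom) transcripts past 0.5 FPKM, with the dashed line at the median and triangles marking the members at heights without meaning. Gm45240, Gm44985 and Pvt1-201 lie left of the annotated median of 0.30, and Pvt1-210 and Pvt1-205 lie right of it. The Pvt1, Myc and E2f1 introns lie around the intronic median of 0.25.

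Beyond these loci, assembled transcripts of a list of 84 cell cycle genes were read in the same way. A total of 21 of the genes had 50 assembled transcripts, all past the filter, of which 40 lay inside introns. In CIA spleen 4 were higher and 4 lower by 2-fold or more, beside 17.2% and 11.1% of all assembled transcripts. The median log2 ratio was -0.0087, below the 0.26 of all assembled transcripts. Inside introns the median was 0.018, and over the 10 that overlap exons it was -0.69. Of these 10, 2 were higher and 3 lower by 2-fold or more, and Tpx2 and Mcm6 gave more than 1 of them. No median was taken over all assembled transcripts that overlap exons, so -0.69 has no background here. Reads of the host mRNA could also be counted for the 10.

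The lowest of the 50 were a pair of transcripts that share junctions with Tpx2, a spindle assembly factor. MSTRG.22753.6 stood at 0.768 FPKM in CIA spleen and 4.80 FPKM in healthy spleen, and MSTRG.22753.5 at 1.18 and 3.44 FPKM. Next came MSTRG.35257.1 at Mki67, given above, MSTRG.20132.1 in Mcm10, a DNA replication factor, at 0.894 and 1.98 FPKM, and MSTRG.1538.1 antisense to an exon of Mcm6, a subunit of the replicative helicase, at 3.32 and 6.69 FPKM. Their log2 ratios were between -2.50 for MSTRG.22753.6 and -0.99 for MSTRG.1538.1. MSTRG.22753.6 rested on 9.23 estimated fragments in the CIA and 62.5 in the healthy library, and MSTRG.20132.1 on 7.11 and 17.1. MSTRG.22753.5 (18.3 and 57.5 fragments) has the same start and end as MSTRG.22753.6. MSTRG.22753.10 and MSTRG.22754.1, also at Tpx2, had log2 ratios of -0.44 and 0.027.

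The highest was MSTRG.7418.2, which shares a junction with Birc5, the mitosis and survival gene survivin, at 5.34 FPKM in CIA spleen and 1.53 FPKM in healthy spleen, a log2 ratio of 1.74. MSTRG.5382.2 at Hmmr, a hyaluronan receptor and spindle protein, stood at 1.70 and 0.508 FPKM, from 41.3 and 13.4 estimated fragments. MSTRG.39595.1 in Cdc25a, a phosphatase that activates cyclin-dependent kinases, stood at 1.97 and 0.913 FPKM, from 11.2 and 5.66 estimated fragments. The 4 intronic transcripts of Ccnd3, the D-type cyclin of lymphocytes and other cells, went the same way. Among them MSTRG.16938.1 was at 27.5 against 14.9 FPKM, MSTRG.16940.1 at 19.3 against 11.1, MSTRG.16941.1 at 18.2 against 10.1, and MSTRG.16942.1 at 12.9 against 5.21 FPKM. The first 3 of these were the most abundant of the list, and their log2 ratios were 0.88, 0.79 and 0.84, and 1.29 for MSTRG.16942.1. The introns of the retinoblastoma gene Rb1 (9.99 and 10.1 FPKM) and of its relative Rbl1 (4.32 and 4.33 FPKM) differed little between the libraries, and the 13 transcripts of Tfdp2, a partner of the E2F factors, had log2 ratios from -0.58 to 0.86.

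**Figure D5:**
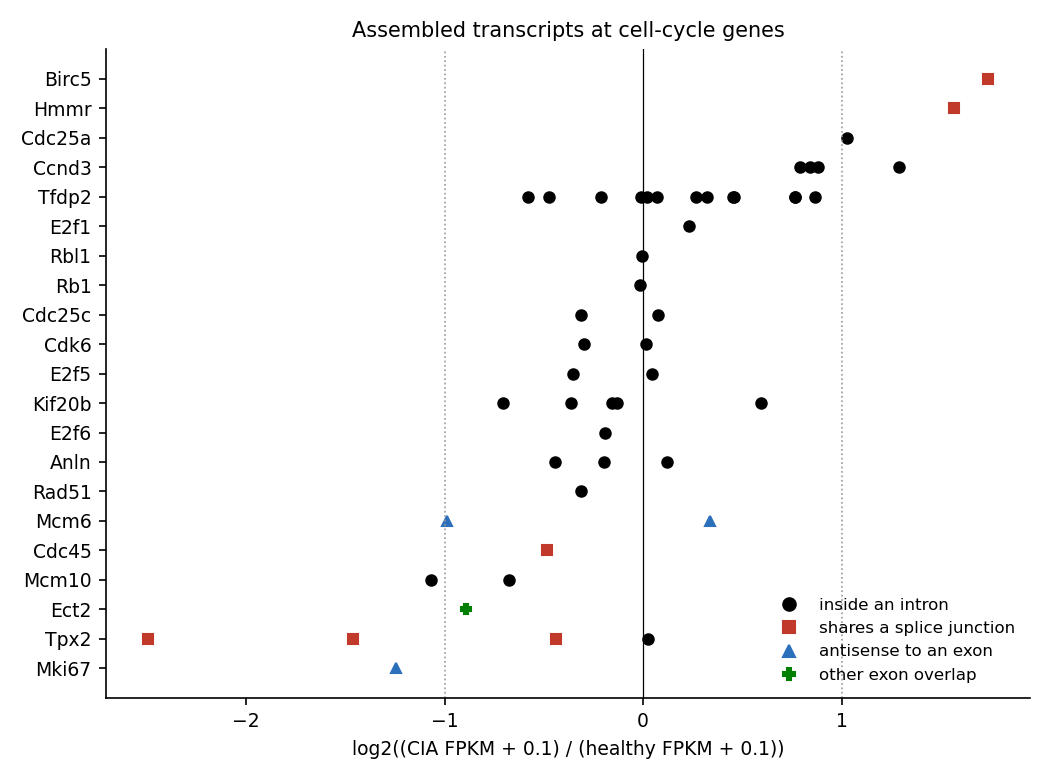
Log2 ratio, CIA over healthy FPKM with 0.1 FPKM added to both, of the 50 assembled transcripts at 21 cell cycle genes, 1 point per transcript, with symbols for their position relative to the gene and dotted lines at 2-fold. Ccnd3, Birc5, Hmmr and Cdc25a lie at the higher end, and Tpx2 and Mki67 hold the 3 lowest points.

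A second list held 18 genes of the Myc network. They include Myc itself, its dimer partner Max, antagonists such as Mxd4, and other genes such as Ncl, Odc1 and Trrap. A total of 6 of them had 7 assembled transcripts, of which 0 were higher and 1 was lower in CIA spleen by 2-fold or more, beside 17.2% and 11.1% of all assembled transcripts, so the count is near the background. Their median log2 ratio was -0.34. The 1 was MSTRG.19939.1 in Mxi1, from 14.1 estimated fragments in the CIA and 42.0 in the healthy library. It stood at 1.77 FPKM in CIA spleen and 4.84 FPKM in healthy spleen. Mxi1 is a repressor that competes with Myc for its partner. MSTRG.8444.3 at Max, that partner itself, was the most abundant, at 6.57 and 8.36 FPKM. In Mga, another Max partner, MSTRG.22093.1 stood at 1.60 and 2.96 FPKM and MSTRG.22092.1 at 2.32 and 3.13 FPKM. The antagonist genes Mxd3 and Mxd4 had 1 transcript each, MSTRG.10200.1 at 2.54 and 3.14 FPKM and MSTRG.28321.3 at 4.79 and 3.97 FPKM. Of the 7, those of Mxd4 and Myc had log2 ratios above 0, at 0.26 and 0.31, and the latter was 0.013 against the annotated median.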

How the data were processed

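RNA of spleen cells was measured in 1 CIA and 1 healthy library. Per the labels' protocols, TRIzol was used for extraction and Ribo-Zero for the removal of ribosomal RNA. StringTie, a transcript assembler, is named in the submitters' processing notes. Not given in the sources used here are the aligner, the build, the strandedness and how p-values were tested. All 15172 annotated transcripts had GENCODE M21 coordinates, so GRCm38 is given as the build.

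The authors deposited FPKM per transcript in 2 tables, per the file headers, with 0.0001 in place of 0, read here as 0. Beside them the authors deposited a ratio (fold), its log2 value, a p-value and a q-value, and the last 2 are only quoted. Columns were matched to groups by the names model and control. The CIA column had 2 damaged cells, for which the number that equalled the deposited ratio times the healthy value (relative tolerance 0.0001) was taken. Neither is a member.

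Computed here were log2 ratios with a pseudocount of 0.1 FPKM, a filter of 0.5 FPKM in either library and a 2-fold rule, since 1 library per group allows no test. The worth of 1 fragment was the most frequent value of FPKM times length below 80 in single-exon annotated transcripts, within 0.2%. Smaller piles at 25.1 and 23.2, 0.5 of that worth, show that fragment numbers are approximate. Intervals of ratios are 95% Clopper-Pearson intervals on rounded fragment numbers. Scripts were tested on simulated data.

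All members past the filter are named or counted. From the 2 lists, the 5 transcripts of highest, the 5 of lowest ratio and the 3 most abundant were named, and the 3 genes nearest Gm45240. Rb1, Rbl1, Tfdp2, the neighbour genes and the grouping of Pvt1 isoforms by first exon were chosen after their values were seen. The members and lists were chosen with earlier results of these data known. As alternatives, the pseudocount, the filter and the size rule (4-fold) were changed, ratios were centred on the annotated median, and locus sums, multi-exon transcripts and 1 value per gene were used. Sequence copies were sought with blastn 2.17.0 among GENCODE M21 transcripts. Other software was matplotlib 3.10.9, scipy 1.17.1, pandas 2.3.3 and numpy 2.4.6 under Python 3.11.15.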

Additional observations from a re-analysis of the deposited data

How the results depend on the processing

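No paired analysis was possible because there was a single library on each side, and none could be left out for the same reason. Of 110 alternative values of the main results, 64 stayed within the limits (for a count 1.5 times, for a ratio its counting interval, for a median 0.005) and 46 moved, and of 60 for single transcripts 8 moved. No value past 2-fold changed sign, but centring turned the sign of smaller ones. Among these were the medians of the members and of the assembled transcripts given below, E2f1 (0.23 to -0.064) and the annotated Pvt1 sum (0.24 to -0.054). Several intronic Pvt1 transcripts also turned, such as MSTRG.13442.1 (0.20 to -0.10). For the members, 1 (Pvt1-204) was at least 2-fold higher with no filter. At least 2-fold lower were 0 with a pseudocount of 1 FPKM or a 4-fold rule and 2 (Pvt1-201 and Gm45240) after centring on the annotated median. The members' median log2 ratio was 0.17, 0.12 and -0.14 with pseudocounts of 0.01 and 1 FPKM and with centring. In the cell cycle list, 2 were higher with a pseudocount of 1 FPKM, with centring, among multi-exon transcripts, and inside introns only, an alternative chosen after seeing the data, and 0 at 4-fold. Lower were 2 with a pseudocount of 1 FPKM or 1 value per gene, 7 with centring, and 1 at 4-fold or inside introns only. The median was -0.31 with centring, -0.30 among multi-exon transcripts, -0.15 with 1 value per gene and 0.018 inside introns only. In the Myc network list, 2 were lower with centring and 0 at 4-fold, and the median was -0.31 with a pseudocount of 1 FPKM and -0.64 with centring. Of annotated transcripts, 86 were higher and 56 lower with a pseudocount of 1 FPKM, 145 and 82 at 4-fold, and 292 and 274 with centring. A filter of 1 FPKM left 251 and 111, and no filter 1023 and 509. Their median was 0.32 and 0.18 with pseudocounts of 0.01 and 1 FPKM, 0 with centring, 0.29 with a filter of 1 FPKM and 0.25 without one. Of assembled transcripts, 1364 were higher and 923 lower with a pseudocount of 1 FPKM, 874 and 744 at 4-fold, and 1927 and 2576 with centring, so the 7 lower of the cell cycle list stand beside a background in which lower calls outnumber higher ones. Their median was 0.27, 0.19 and -0.040 with pseudocounts of 0.01 and 1 FPKM and with centring. A pseudocount of 1 FPKM shrinks ratios by construction, centring subtracts the annotated median of 0.30, and a stricter filter, a 4-fold rule or a subset counts fewer transcripts. Other causes of these moves were not tested. Depth limits Gm44985, Myc, E2f1 and the single Pvt1 isoforms, each with under 50 estimated fragments per library. The same holds for MSTRG.13432.1, MSTRG.13436.1, MSTRG.13439.1, MSTRG.13445.1 and MSTRG.13446.1 in the Pvt1 introns. It also holds for some transcripts of the lists, such as MSTRG.35257.1 at Mki67 and MSTRG.39595.1 in Cdc25a.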
